A study of Mus musculus with 2 samples.

Results

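The NF-kB and AP-1 immediate response was followed through mouse bone marrow by 10 genes picked by symbol, namely Rela, Nfkb1, Nfkbia, Tnfaip3, Jun, Junb, Jund, Fos, Fosb and Egr1, out of 32285 genes counted. All 10 were found. There was 1 library per genotype, and the labels do not say whether a library came from 1 mouse or from several. The control (genotype label WT) was a littermate that carried Ddx41fl/fl without the Cre transgene and had wild-type cGas. The DKO was VavCre:Ddx41fl/fl cGas-/-, and both genotypes were studied at 2 months of age. VavCre removes the floxed allele in hematopoietic cells and is also active in part of the endothelium, so that Ddx41, which codes for a DEAD-box RNA helicase, was lost in blood cells while cGas, the cytosolic DNA sensor, was absent from the whole animal. The DKO thus differed from the control in 2 genes, and the effects of one and the other cannot be told apart in these libraries. Femoral marrow was flushed and total cells were loaded for 3' single-cell RNA-seq, in which each captured transcript is counted once by its unique molecular identifier (UMI).

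NF-kB proteins are dimers that wait in the cytoplasm, held by inhibitors of the IkB family, and enter the nucleus when a kinase complex marks the inhibitor for destruction. Among their first targets are the genes of their own inhibitors, which closes a feedback loop. AP-1 is a dimer of a Jun protein with a Fos protein or with a second Jun protein. Most of its genes, like Egr1, are transcribed within minutes of a stimulus from promoters that need no new protein, and their mRNAs are short-lived. In marrow these genes are known for their part in myeloid differentiation and neutrophil activation, and they can also rise while tissue is being dispersed.

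After quality filters 18649 control cells (119287273 UMIs, median 4890 per cell) and 13719 DKO cells (114664975 UMIs, median 6900 per cell) were kept. They fell into 37 clusters, formed without the 10 genes, of which 35 could be named from markers and were joined into 18 classes. Both libraries held 200 cells or more in 10 of the classes, and the other 8 are smaller. With 1 library per genotype no difference was tested. Levels are UMI counts scaled to the UMI total of the class and given as CPM, which the 3' protocol does not tie to transcript length, ratios are log2 of DKO over control with 1 UMI added to each sum, and the 95% intervals cover counting error only, not the spread between mice. The targeted genes were read as a check of the labels. Ddx41 gave 20.3 CPM in control cells and 7.99 CPM in DKO cells (log2 ratio -1.34), and Cgas 13.6 and 7.24 CPM (-0.90). Reads from parts of either gene outside the deletion would still be counted at the 3' end, so the remaining UMIs do not measure intact mRNA. Cells were deeper in the DKO library in 16 of the 18 classes, the exceptions being macrophage-like and megakaryocyte-like cells.

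The members lie on 8 chromosomes of GRCm38 (mm10), and their gene models in GENCODE M21 differ in build. Jund (chr8:70698949-70700616) and Jun (chr4:95049034-95052222) each have 1 exon and no intron, with gene lengths of 1668 and 3189 bases. Nfkbia (chr12:55489410-55492647), Fos (chr12:85473890-85477273) and Junb (chr8:84974484-84978718) are also compact, at 3238, 3384 and 4235 bases. Fosb (chr7:19302696-19310051), Rela (chr19:5637483-5648130) and Tnfaip3 (chr10:19000910-19015657) span 7356, 10648 and 14748 bases. Nfkb1 (chr3:135584655-135691547) is the only long gene of the set, with 106893 bases and up to 25 exons. Egr1 spans 5162 bases.

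Promoter windows of 300 bases (250 before to 50 after a start, RefSeq, GRCm38.p6) were at hand for 8 members, so those of Nfkb1 and Egr1 were not searched. The windows of Nfkbia, Tnfaip3 and Jun are shown because they hold the binding motifs of the family itself, those of NF-kB in front of its 2 inhibitors and that of Jun dimers in front of Jun. Capitals mark matches to the kB motif, TGACTCA or TGACATCA on either strand, and neighboring matches do not overlap.
Nfkbia, chr12:55492598-55492897, minus strand: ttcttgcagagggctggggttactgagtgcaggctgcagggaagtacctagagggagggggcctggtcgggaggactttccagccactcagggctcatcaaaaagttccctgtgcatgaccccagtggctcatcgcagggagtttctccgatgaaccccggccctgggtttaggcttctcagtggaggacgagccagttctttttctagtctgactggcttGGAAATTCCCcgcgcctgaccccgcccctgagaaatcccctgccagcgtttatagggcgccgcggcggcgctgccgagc
Tnfaip3, chr10:19015361-19015660, minus strand: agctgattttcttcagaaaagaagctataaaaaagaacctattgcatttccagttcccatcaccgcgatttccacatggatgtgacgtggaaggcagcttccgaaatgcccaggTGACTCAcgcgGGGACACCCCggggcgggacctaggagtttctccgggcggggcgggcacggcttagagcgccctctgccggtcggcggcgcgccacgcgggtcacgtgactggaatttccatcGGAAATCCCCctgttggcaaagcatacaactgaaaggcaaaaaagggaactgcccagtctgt
Jun, chr4:95052173-95052472, minus strand: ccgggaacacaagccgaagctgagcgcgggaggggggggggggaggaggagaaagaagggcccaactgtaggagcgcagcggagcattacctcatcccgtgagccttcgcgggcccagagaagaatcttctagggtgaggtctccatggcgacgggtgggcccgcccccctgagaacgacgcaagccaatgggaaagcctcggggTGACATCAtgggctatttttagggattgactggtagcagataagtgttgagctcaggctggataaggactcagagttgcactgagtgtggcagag
The kB motif began 29 bases before the start of Nfkbia, and in Tnfaip3 it began 125 and 12 bases before the start, with TGACTCA at 136 bases before it. Jun had TGACATCA beginning 45 bases before its start. The kB motif was found in the windows of 4 members (Nfkbia, Tnfaip3, Fos and Fosb) and in 8.46% of all 32851 windows in the table. TGACTCA was found for 1 member and in 5.20% of all windows, and TGACATCA for 3 members (Jun, Rela and a second Tnfaip3 start) and in 3.62%. The full site TGACGTCA and the CArG box had no match in a member's window and occurred in 1.79% and 1.63% of all windows. Sites more than 250 bases before a start were not searched. The window of Jund (chr8:70697489-70697788) ends before the Jund gene model given above, so it does not cover the start of that model. A G-quadruplex motif, written as 4 runs of at least 3 G with 1 to 7 bases between runs, was present on either strand for Rela, Jun and Fosb and in 18.6% of all windows. These matches are descriptions of letters, not of bound sites.

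**Figure D1:**
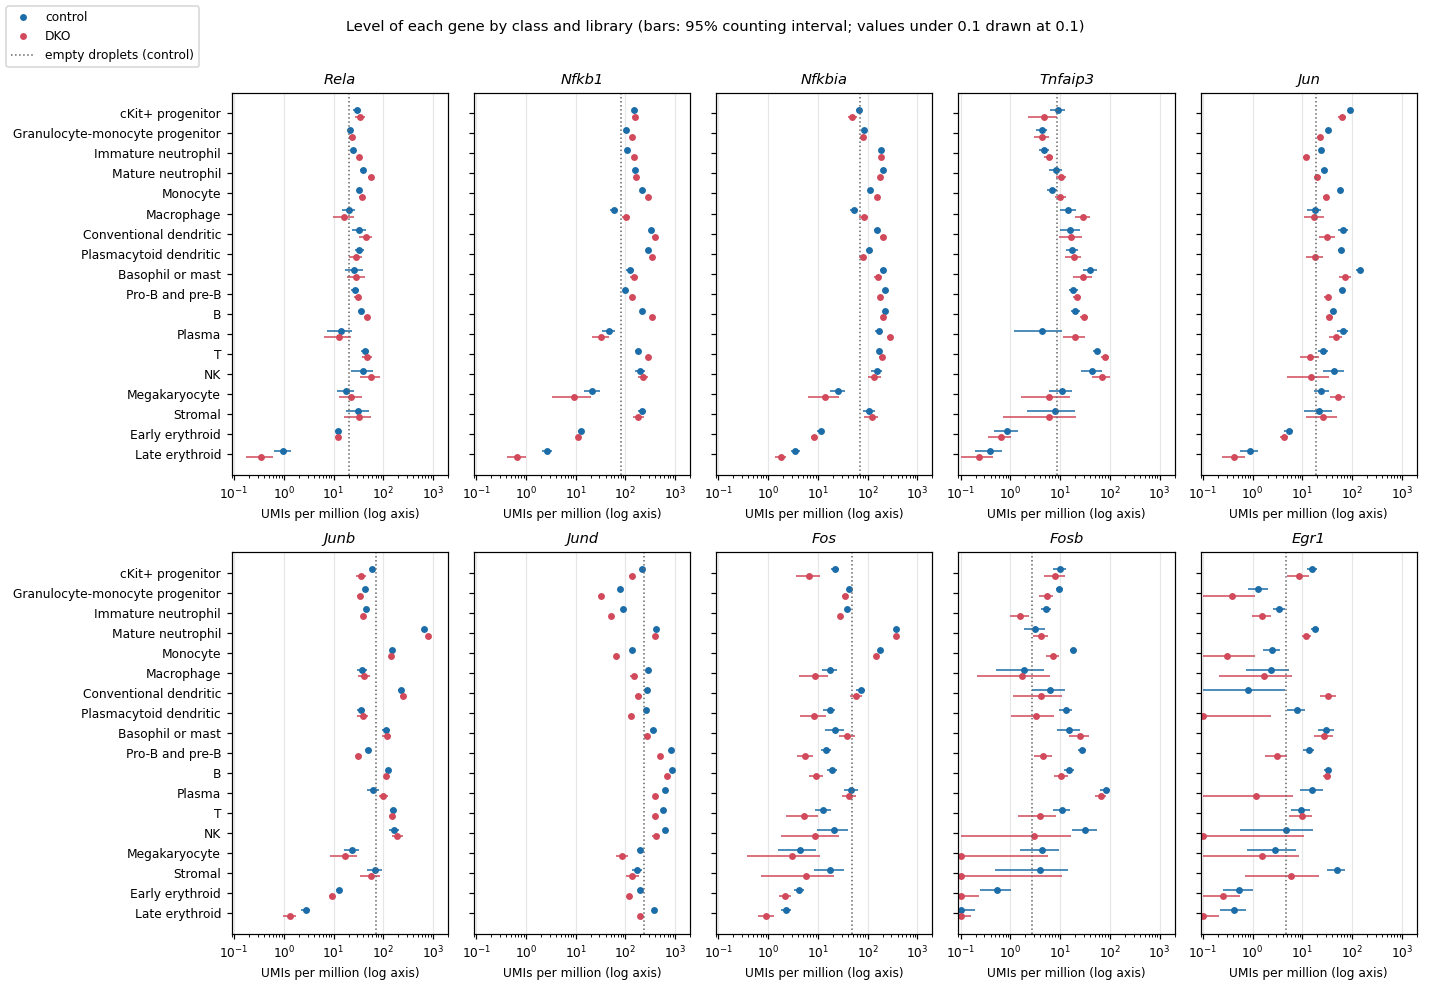
Level of each gene (x axis, CPM, log axis) in 18 classes (y axis) of the control (blue) and DKO (red) library, with 95% counting intervals as bars and the level in empty droplets of the control library as a dotted line. Junb and Fos were highest in mature neutrophil-like cells of both libraries, and in late erythroid-like cells Jund alone stayed above 4 CPM.

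Rela codes for the transactivating p65 subunit of NF-kB. Outside the red cell lineage its level ran from 13.8 CPM in plasma-like to 42.7 CPM in T-like cells of the control library and from 12.6 to 56.2 CPM in the DKO library. In mature neutrophil-like cells Rela gave 38.7 CPM (233 UMIs) in control and 55.4 CPM (434 UMIs) in DKO cells, a log2 ratio of 0.51 (0.28 to 0.75). It was 35.7 and 47.1 CPM in B-like cells (0.40, 0.08 to 0.71) and 24.9 and 32.1 CPM in immature neutrophil-like cells (0.36, 0.16 to 0.57). Of the 14 classes in which Rela had a mean of at least 20 CPM, 13 had a ratio above 0, but in 3 the interval lay above 0, and no ratio reached 1.5-fold. Most genes tested were above 0 in many classes too, with 37.1% below 0 in B-like and 40.1% in granulocyte-monocyte progenitor-like cells. The share of genes tested with a ratio at or below that of Rela ran from 19.9% in plasmacytoid dendritic-like to 91.7% in mature neutrophil-like cells. Among the top 5 classes of each library the intervals of neighbors in the order overlapped.

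Nfkb1 codes for p105, the precursor of the p50 subunit. It was highest in conventional dendritic-like cells, at 325 CPM in control and 385 CPM in DKO cells, followed by plasmacytoid dendritic-like cells at 279 and 343 CPM. In B-like cells it was 215 CPM (965 UMIs) in control and 337 CPM (1309 UMIs) in DKO cells, with a log2 ratio of 0.64 (0.52 to 0.77). T-like cells, at 175 and 283 CPM, had a ratio of 0.70 (0.50 to 0.89), but this class joins a main cluster with a smaller one led by Gata3 and Rnf128, which held 3.89% of control and 14.9% of DKO T-like cells and had none of the T markers among its leading genes. In the main T-like cluster alone Nfkb1 was 161 and 208 CPM, with a ratio of 0.37 (0.15 to 0.59), under 1.5-fold. The ratio was 0.84 (0.47 to 1.21) in macrophage-like cells, from 58.4 to 104 CPM. Immature neutrophil-like, granulocyte-monocyte progenitor-like, pro-B and pre-B-like and monocyte-like cells had ratios of 0.46, 0.41, 0.41 and 0.40. In 13 of 15 classes with enough counts the ratio was above 0, and in 9 the whole interval was above 0. Beside this, the share of genes tested with a ratio at or below that of Nfkb1 ran from 30.1% in stromal-like to 98.4% in macrophage-like cells. Mature neutrophil-like cells (152 and 164 CPM, 0.10) and cKit+ progenitor-like cells (150.1 and 153 CPM, 0.03) had intervals that included 0.

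Nfkbia codes for IkB-alpha, the inhibitor that is remade first after NF-kB activation. It was measured at 187 CPM in both libraries in immature neutrophil-like cells, and at 220.4 and 207 CPM in B-like cells. In monocyte-like cells it was 112 CPM (1143 UMIs) in control and 157 CPM (1038 UMIs) in DKO cells (log2 ratio 0.49, 0.37 to 0.62), and both monocyte-like clusters had ratios above 0 (0.40 and 0.64). Conventional dendritic-like cells (157 and 207 CPM, 0.40) and plasma-like cells (166 and 279 CPM, 0.75) were also higher in the DKO library, the latter from 67 and 54 cells, of which 25 control but 2 DKO cells lay in a cluster with 36.6% hemoglobin UMIs. The direction was the opposite in pro-B and pre-B-like cells (220.5 and 178 CPM, -0.31, interval -0.44 to -0.18), in cKit+ progenitor-like cells (66.9 and 49.3 CPM, -0.43) and in plasmacytoid dendritic-like cells (104 and 79.3 CPM, -0.38). Nfkbia thus had no common direction, with 6 classes above 0 and 9 below 0 among the 15 with enough counts.

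Tnfaip3 codes for A20, a ubiquitin-editing enzyme that ends NF-kB signaling. Its UMIs were few. It was highest in T-like cells, at 54.8 CPM (140 UMIs) in control and 78.7 CPM (122 UMIs) in DKO cells, a log2 ratio of 0.52 (0.16 to 0.88), and of 0.41 in the main T-like cluster alone. NK-like cells followed at 43.7 and 68.0 CPM, from 19 and 23 UMIs. In B-like cells the level was 20.1 CPM (90 UMIs) in control and 29.8 CPM (116 UMIs) in DKO cells, a ratio of 0.57 (0.16 to 0.98). It passed 20 CPM in 6 classes, with a ratio above 0 in 5 and below 0 in basophil or mast-like cells (-0.46, -1.29 to 0.29).

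Jund codes for JunD, the Jun family member that resting cells also express. It was the only member with a ratio below 0 in all 18 classes, and in 16 of them the interval lay below 0. It was highest in B-like cells, at 875 CPM (3923 UMIs) in control and 674 CPM (2623 UMIs) in DKO cells, a log2 ratio of -0.38 (-0.45 to -0.30). In pro-B and pre-B-like cells it was 830 and 505 CPM (-0.71, -0.79 to -0.64). Granulocyte-monocyte progenitor-like cells had the lowest level and the lowest ratio, 77.7 CPM (1187 UMIs) in control and 31.8 CPM (251 UMIs) in DKO cells (-1.28, -1.49 to -1.09). Both clusters of that class showed it, at -1.43 and -0.96.

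The other low ratios of Jund were -1.15 in megakaryocyte-like, -1.03 in monocyte-like, -0.99 in plasmacytoid dendritic-like, -0.95 in macrophage-like and -0.94 in late erythroid-like cells. In mature neutrophil-like cells, by contrast, Jund was 415 CPM (2494 UMIs) in control and 398 CPM (3115 UMIs) in DKO cells, and the interval included 0 (-0.06, -0.14 to 0.02). When only barcodes above each library's order-of-magnitude threshold were kept, that ratio was -0.49. Among single clusters Jund was below 0 in 35 of 37. The exceptions were the Pla2g7 and Csf3r mature neutrophil-like cluster (0.09) and an erythroid cluster of 16 cells with 19 Jund UMIs. Empty droplets of the control library held 232 CPM of Jund. The DKO matrix held called barcodes only, so the free RNA bounds of both libraries rest on these control droplets and on hemoglobin UMIs. For DKO cells they hold only if free RNA had the same make-up there, which could not be measured. On that basis free RNA was at most 22.8 of 77.7 CPM of Jund in control and 24.95 of 31.8 CPM in DKO granulocyte-monocyte progenitor-like cells. In B-like cells it was at most 135 of 875 and 136 of 674 CPM. In macrophage-like cells the bound, 761 and 813 CPM, passed the 285 and 147 CPM measured, and in megakaryocyte-like cells it did too. The part of free RNA in the Jund ratios of the latter classes was not tested.

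Of the 454 genes with a mean of at least 20 CPM in all 18 classes, 49 (10.8%) were below 0 in each of them, Jund among them. In granulocyte-monocyte progenitor-like cells 0.210% of the genes tested had a ratio as low as that of Jund or lower. That share was 0.535% in monocyte-like, 0.605% in immature neutrophil-like, 0.880% in pro-B and pre-B-like and 1.63% in early erythroid-like cells, but 9.04% in B-like, 15.9% in late erythroid-like and 35.3% in mature neutrophil-like cells. The plot of Jund beside all genes tested shows this spread between classes.

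**Figure D2:**
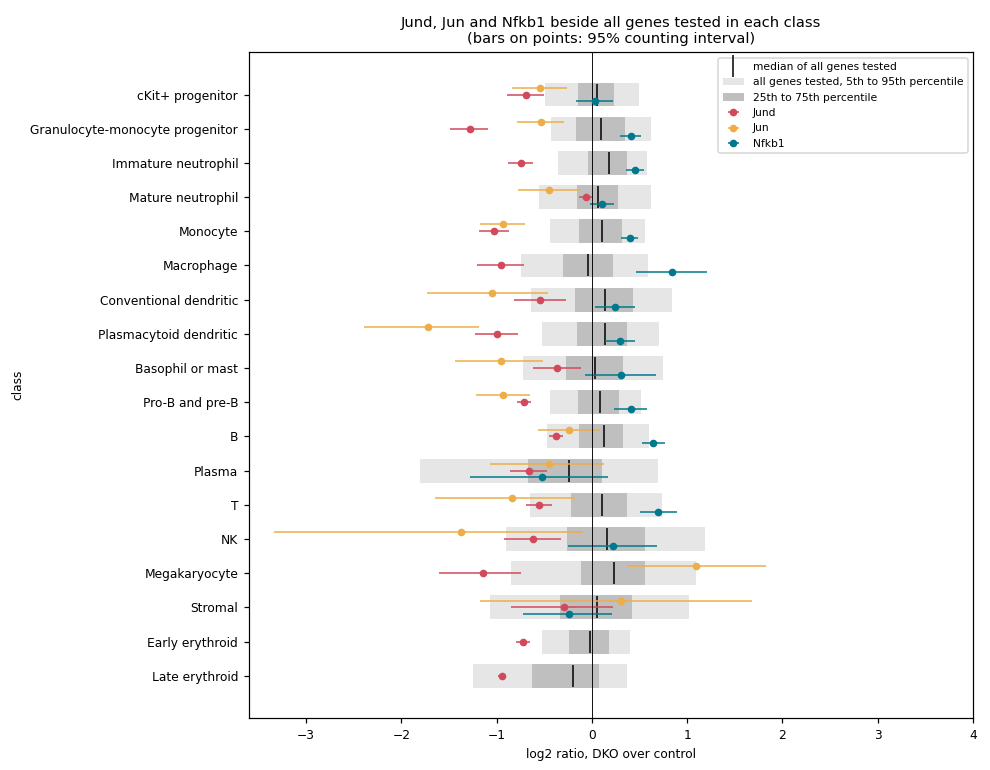
Log2 ratio of DKO over control (x axis) for Jund (red), Jun (yellow) and Nfkb1 (teal) in 18 classes (y axis), with 95% counting intervals, over grey bars for all genes tested in that class. Jund lies left of 0 in every class and outside the 5th to 95th percentile bar in granulocyte-monocyte progenitor, immature neutrophil and monocyte-like cells, among others, but inside it in B, late erythroid and mature neutrophil-like cells.

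Jun codes for c-Jun, the first-described partner of Fos. Its top level was that of basophil or mast-like cells, with 142 CPM (141 UMIs) in control and 72.6 CPM (58 UMIs) in DKO cells, a log2 ratio of -0.95 (-1.43 to -0.52). In monocyte-like cells it was 57.6 CPM (590 UMIs) in control and 30.1 CPM (199 UMIs) in DKO cells (-0.93, -1.17 to -0.70), and in pro-B and pre-B-like cells 61.3 and 32.2 CPM (-0.93, -1.22 to -0.65). The lowest ratio was in plasmacytoid dendritic-like cells, 60.9 CPM (196 UMIs) in control and 17.9 CPM (28 UMIs) in DKO cells (-1.72, -2.39 to -1.19). Of 14 classes with enough counts, 12 had a ratio below 0, and 7 of them were lower by at least 1.5-fold. In the small classes among these, 394 of 6041 genes tested were as far lower in conventional dendritic-like and 238 of 6576 in plasmacytoid dendritic-like cells. The counts were 538 of 6484 in basophil or mast-like and 708 of 6149 in NK-like cells. Megakaryocyte-like cells were higher, at 24.2 and 51.8 CPM from 34 UMIs in each library (1.10, 0.37 to 1.83). In that class 1087 of 4700 genes tested were higher by 1.5-fold. The free RNA bound of Jun there was 31.7 CPM in control, above the level measured, and 18.3 CPM in DKO cells. B-like cells gave 41.3 and 35.0 CPM, with an interval that included 0 (-0.24, -0.57 to 0.09).

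Junb codes for JunB, a Jun protein with a weaker transactivating domain. Its level in mature neutrophil-like cells, 665 CPM (4003 UMIs) in control and 811 CPM (6351 UMIs) in DKO cells, exceeded that of every other class. The ratio there was 0.29 (0.23 to 0.34). Conventional dendritic-like cells came next, at 227 and 248 CPM. Junb was lower in DKO cells in the pro-B and pre-B-like class (49.98 and 31.6 CPM, -0.66, -0.96 to -0.37) and among cKit+ progenitor-like cells (59.5 and 35.2 CPM, -0.74, -1.15 to -0.38). T-like (154 and 151 CPM, -0.03) and monocyte-like cells (153 and 144 CPM, -0.09) had intervals that included 0.

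Fos codes for c-Fos. It too was highest in mature neutrophil-like cells, at 372 CPM (2240 UMIs) in control and 376 CPM (2943 UMIs) in DKO cells (0.01, -0.07 to 0.09). Monocyte-like cells stood second in both libraries, at 179 CPM (1837 UMIs) and 147 CPM (969 UMIs), with a ratio of -0.29 (-0.40 to -0.18). Immature neutrophil-like cells had 38.4 and 28.2 CPM (-0.45, -0.64 to -0.26). Fos was rare in B and T lineage classes, and the control value was the higher one, with 87 and 36 UMIs in B-like cells (-1.05), 68 and 29 in pro-B and pre-B-like cells (-1.36) and 33 and 8 in T-like cells (-1.20). In CPM these levels are below the 47.9 CPM of Fos in empty droplets, and none of the 3 ratios met the 20 CPM minimum.

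Fosb codes for FosB, another Fos family member. In plasma-like cells it reached 81.9 CPM (77 UMIs) in control and 65.4 CPM (57 UMIs) in DKO cells. In pro-B and pre-B-like cells it was 27.9 CPM (130 UMIs) in control and 4.62 CPM (24 UMIs) in DKO cells, a ratio of -2.55 (-3.29 to -1.96) at a mean of 16.3 CPM, under the 20 CPM minimum. Within that class the Rag1 and Vpreb3 cluster held 82 control UMIs in 47 of 602 cells and 2 DKO UMIs in 2 of 461 cells. The same direction was seen in monocyte-like cells (184 and 47 UMIs, -1.31) and in immature neutrophil-like cells (77 and 22 UMIs, -1.68), both also under that minimum.

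Egr1 codes for a zinc-finger factor that serum and antigen receptors induce. It was measured at 32.1 CPM (144 UMIs) in control and 31.1 CPM (121 UMIs) in DKO B-like cells (-0.04, -0.41 to 0.31). In mature neutrophil-like cells it had 110 control and 94 DKO UMIs (-0.61, -1.02 to -0.20). In stromal-like cells it had 25 control and 2 DKO UMIs. The highest ratio of any member, 4.43 for Egr1 in conventional dendritic-like cells, rested on 1 control UMI and 32 DKO UMIs, and the latter came from 4 of 99 cells, 1 of which held 20.

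Read against all genes, the members differed among classes. A member is counted below where its mean over both libraries was at least 20 CPM and its ratio was at least 1.5-fold from 1. In granulocyte-monocyte progenitor-like cells 1 of 7 members tested was lower (Jund) and 0 were higher, where 1.31% of 6182 genes were lower and 6.68% higher. In immature neutrophil-like cells 1 of 6 was lower (Jund) and 0 higher, where 1.15% of 4955 genes were lower and 4.92% higher. In monocyte-like cells 2 of 7 were lower (Jun and Jund) and 0 higher, beside 1.86% and 4.19% of 6352 genes. Pro-B and pre-B-like cells had 3 of 7 lower (Jun, Junb and Jund) and 0 higher, beside 1.74% and 2.53% of 6252 genes.

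In B-like cells 0 of 8 were lower and 1 was higher (Nfkb1), where 2.56% of 5974 genes were lower and 5.32% higher. T-like cells had 1 of 7 lower (Jun) and 1 higher (Nfkb1), beside 6.45% and 10.4% of 6112 genes. In the main T-like cluster alone the ratios were -1.81 for Jun, from 62 and 9 UMIs, and 0.37 for Nfkb1, so that the higher call was not met there. Mature neutrophil-like cells had 0 of 7 in either direction, beside 4.48% and 5.84% of 4467 genes. In macrophage-like cells 1 of 5 was lower (Jund) and 3 were higher (Nfkb1, Nfkbia and Tnfaip3), beside 9.63% and 5.12% of 4183 genes. This class had few UMIs per cell (medians of 1142 and 900) and a large share of hemoglobin UMIs, and its 3 higher calls were not stable: Tnfaip3 was -0.21 when each cell weighed the same, Nfkbia was 0.03 with a mitochondrial limit of 10%, and Nfkb1 was 0.28 among barcodes above the order-of-magnitude threshold. Only Jund passed the minimum in early and late erythroid-like cells and was lower in both, where 3.03% and 26.5% of 4416 and 671 genes were lower and 0.77% and 0.298% higher, and in late erythroid-like cells 15.9% of them had a ratio at or below that of Jund.

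Medians over the 10 members include those under 20 CPM, while medians of all genes tested cover only genes that passed this minimum. The median ratio over the members was -0.69 in pro-B and pre-B-like, -0.31 in immature neutrophil-like, -0.29 in granulocyte-monocyte progenitor-like and -0.19 in monocyte-like cells, where the median of all genes tested was 0.09, 0.18, 0.10 and 0.11. It was -0.11, 0.02 and 0.06 in B-like, T-like and mature neutrophil-like cells, beside 0.12, 0.11 and 0.06. The families were also summed apart, with 4 NF-kB members and 5 Jun and Fos members. In 9 of 18 classes the NF-kB median was above 0 and the Jun and Fos median below 0, in 2 both were above 0, in 6 both were below 0, and in 1 the signs were the other way round. The median of all genes tested was itself above 0 in most classes, so an NF-kB median above 0 need not exceed it. In granulocyte-monocyte progenitor-like cells, counted among the 9, the NF-kB median was 0.06, beside 0.10 for all genes tested. The medians of the first and the second family were 0.45 and -0.93 in monocyte-like cells, 0.36 and -0.84 in T-like cells, 0.33 and -0.75 in immature neutrophil-like cells, 0.23 and -0.93 in pro-B and pre-B-like cells and 0.48 and -0.38 in B-like cells. They were 0.23 and 0.01 in mature neutrophil-like cells and -0.09 and 0.04 in basophil or mast-like cells. Both were below 0 in cKit+ progenitor-like (-0.20 and -0.69), early erythroid-like (-0.29 and -0.72) and late erythroid-like cells (-1.22 and -0.99). In the erythroid classes only Jund passed the 20 CPM minimum, so the medians there rest mainly on genes under it. The heat map of ratios shows both families side by side.

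**Figure D3:**
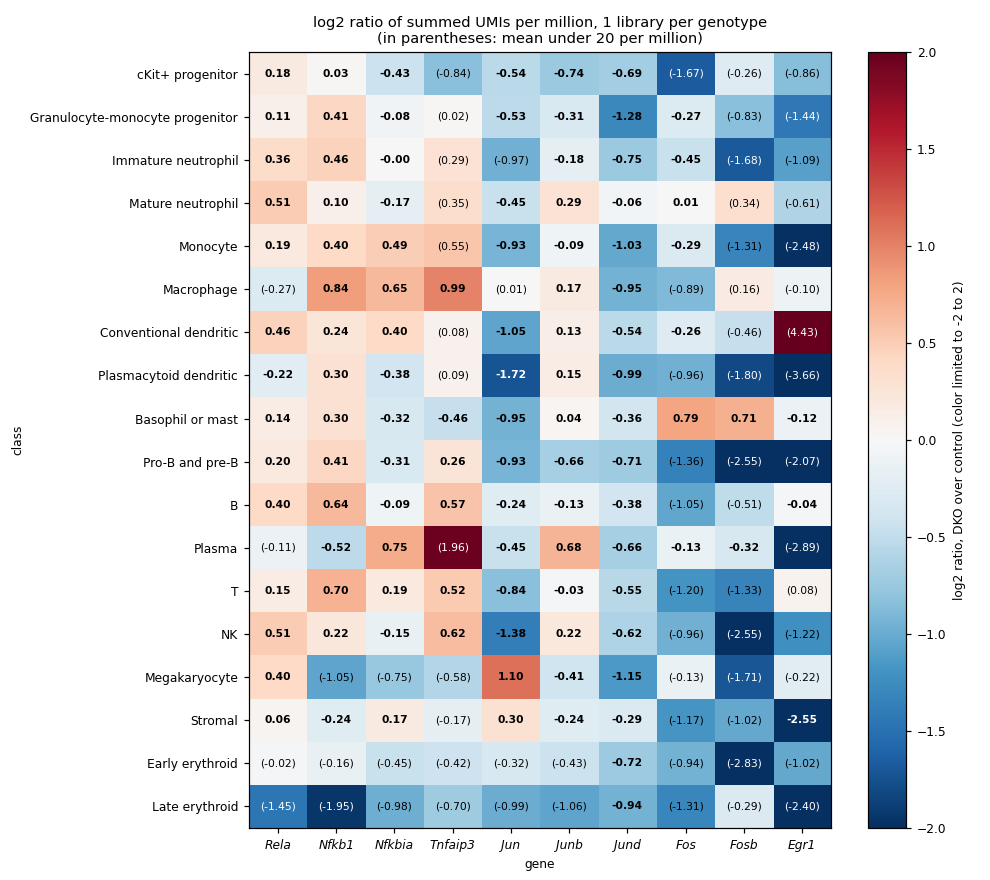
Log2 ratio of DKO over control for 10 genes (columns) in 18 classes (rows), printed in each cell and colored from blue (lower in DKO) to red (higher in DKO); values in parentheses come from genes with a mean under 20 CPM. The Jund column is blue throughout, and the Rela and Nfkb1 columns each hold 13 values above 0 of 18. For comparison, 37.1% of all genes tested were below 0 in B-like cells.

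Gene length moved with these ratios. Over all genes tested, those under 5000 bases had a median ratio of -0.21 in monocyte-like, -0.24 in B-like, -0.29 in T-like and -0.82 in late erythroid-like cells, and those of at least 100000 bases had medians of 0.33, 0.35, 0.39 and 0.14. Nfkb1 belongs to the long group, whose median was 0.46 in granulocyte-monocyte progenitor-like cells (Nfkb1 0.41), 0.39 in immature neutrophil-like cells (0.46) and 0.33 in monocyte-like cells (0.40). Nfkb1 lay further above it in B-like (0.64) and macrophage-like cells (0.84, long-gene median 0.10). Jund and Jun belong to the short group and lay well below its median in monocyte-like cells, while Nfkbia, close to Jun in length, lay above it (0.49). Genes with 1 exon in all annotated transcripts had medians of -0.02 in monocyte-like, -0.01 in granulocyte-monocyte progenitor-like and -0.14 in pro-B and pre-B-like cells. The part of gene length in the members' ratios was not tested.

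**Figure D4:**
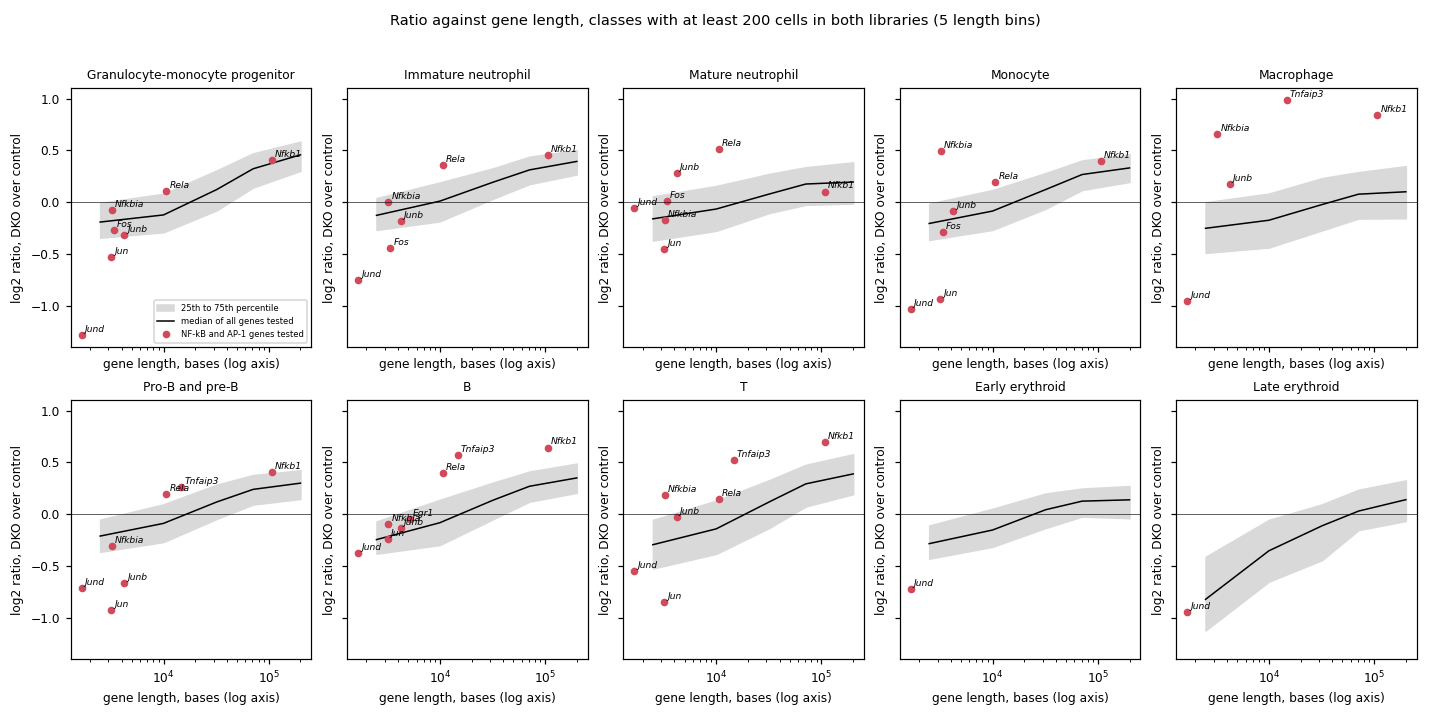
Log2 ratio of DKO over control (y axis) against gene length in bases (log x axis) in the 10 larger classes, with the median (line) and quartiles (grey) of all genes tested in 5 length bins and the members tested as labelled red points. The median is higher for the longest than for the shortest genes in each panel, and Jund, the shortest member, lies below the lower quartile of its bin in 7 of 10.

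Levels changed with stage over the 4 neutrophil-like clusters of both libraries. The clusters were set in order by their leading genes, from Fcnb and Chil3, over Ltf, to Retnlg, and last to Pla2g7 and Csf3r, which run from granule-forming precursors to the mature cell. Junb was 17.6, 65.1, 459.8 and 1057 CPM in these clusters of the control library and 10.6, 64.0, 611 and 1206 CPM in the DKO library. Fos was 14.5, 56.6, 294 and 521 CPM in control cells and 8.73, 44.8, 329.8 and 467 CPM in DKO cells. Jund rose in the same order, from 52.6 to 564 CPM and from 29.1 to 599 CPM. Median UMIs per cell fell from the first to the last cluster, from 15309 to 2290.5 in control and from 18038 to 2994 in DKO cells. CPM is relative to the UMI total, so these rises are not rises of the same size in UMIs per cell.

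Nfkbia did not follow: it was 209.95, 170.4, 160.2 and 274 CPM in control cells and 204.5, 173, 154 and 222 CPM in DKO cells. Egr1 was at most 5.11 CPM in the first 3 clusters and 47.8 CPM in the last cluster of the control library, and at most 1.73 and then 35.0 CPM in the DKO library. Jun was 21.4, 25.3, 12.9 and 54.6 CPM in control cells and 8.88, 14.7, 5.19 and 49.1 CPM in DKO cells. The Jun ratio was thus -1.25, -0.77 and -1.29 in the first 3 clusters and -0.15 in the last, and that of Jund was -0.85, -0.67, -0.18 and 0.09. In the Pla2g7 and Csf3r cluster Rela was 45.4 CPM in control and 71.1 CPM in DKO cells (0.64, 0.28 to 1.02).

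**Figure D5:**
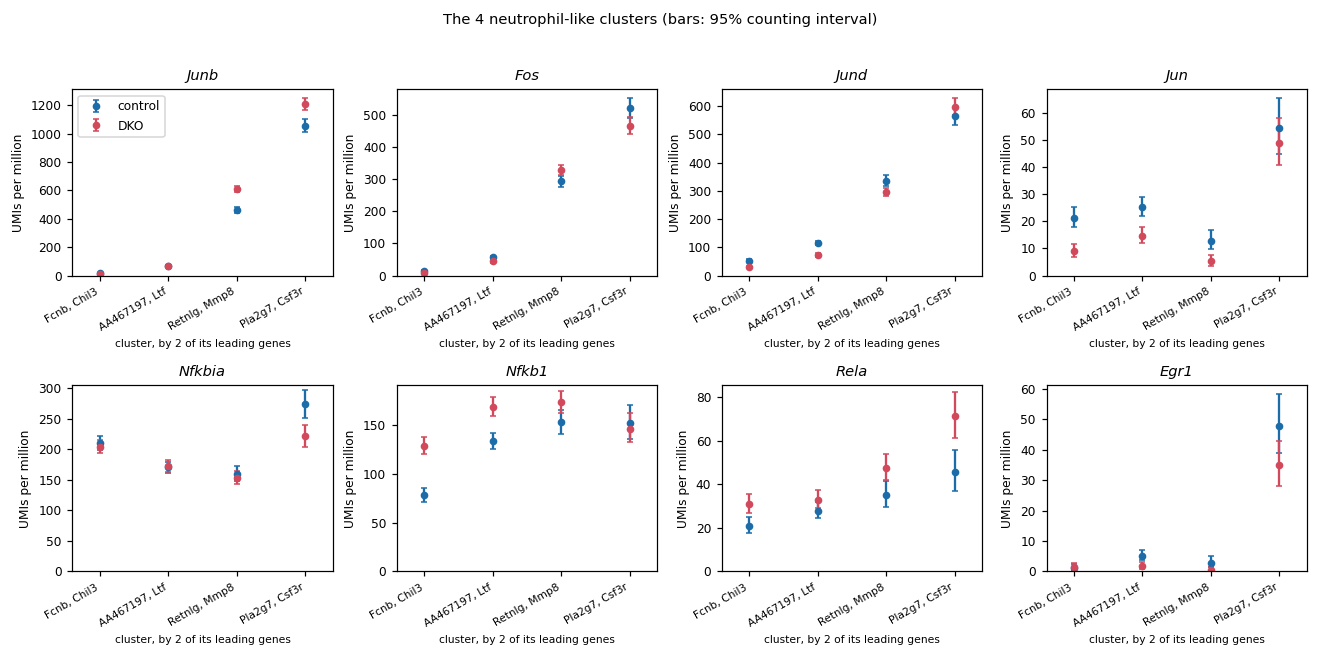
Level (y axis, CPM) of 8 genes in the 4 neutrophil-like clusters (x axis, named by 2 leading genes and ordered from immature to mature) of the control (blue) and DKO (red) library, with 95% counting intervals. Junb, Fos and Jund climb over the order in both libraries, while Nfkbia does not.

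In the B lineage the levels also depended on the stage. Jund was 442 CPM in the Vpreb1 and Igll1 cluster of control cells, 1550.5 CPM in the Rag1 and Vpreb3 cluster, 1080 CPM in the Ms4a1 and Ly6d cluster and 823 CPM in the Ighd and Fcer2a cluster, and 253, 983, 771 and 646 CPM in DKO cells. All 4 ratios were below 0 (-0.80, -0.66, -0.49 and -0.35). Median UMIs per cell were 6100.5, 2339, 2555 and 2561 in these clusters of control cells, so levels in CPM do not compare UMIs per cell between stages. Nfkb1 had the opposite sign in all 4, at 0.44, 0.37, 0.82 and 0.58. The Ms4a1 and Ly6d cluster had the highest Egr1 level among them, 83.1 CPM (76 UMIs) in control and 100.1 CPM (88 UMIs) in DKO cells, and it was also the one B lineage cluster with Jun above 0 (36.1 and 59.1 CPM, 0.70, 0.06 to 1.39).

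In red cell precursors Jund had the highest level of the 10 members in both libraries. Early erythroid-like cells gave 196 CPM (3251 UMIs) in control and 119 CPM (2807 UMIs) in DKO cells (-0.72), and late erythroid-like cells 373 CPM (10671 UMIs) and 194 CPM (6795 UMIs) (-0.94, -0.98 to -0.90). With hemoglobin genes left out of the totals the ratios were -0.64 and -0.65. The other 9 members were at 0.0349 to 3.53 CPM in late erythroid-like cells of the control library and at 0.0286 to 1.77 CPM in those of the DKO library. Empty droplets of the control library held 232 CPM of Jund, 69.5 CPM of Nfkbia, 72.9 CPM of Junb and 47.9 CPM of Fos. From the neutrophil transcripts S100a8 and S100a9, free RNA made up at most 3.39% of control and 1.46% of DKO UMIs of this class, which would give 2.47 and 1.07 CPM of Junb, where 2.76 and 1.32 CPM were measured, but at most 2.11% and 1.75% of the Jund level. For the other 9 members this bound was 37.8% or more of the level measured. The bounds of the DKO library again rest on the empty droplets of the control library.

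To compare single cells at equal depth, each was thinned to 2000 UMIs and shallower cells were left out (457 of 1845 control and 183 of 2028 DKO mature neutrophil-like cells, for example). Junb then had a UMI in 64.0% of control (interval 61.5% to 66.6%) and 72.0% of DKO (69.9% to 74.0%) mature neutrophil-like cells, and Fos in 45.7% and 50.5%. At 1000 UMIs per cell the order was kept for Junb (46.9% and 52.5%) and not for Fos (32.5% and 30.6%). As sequenced the shares were 74.0% and 83.2% for Junb. Late erythroid-like cells had a Junb UMI in 0.469% and 0.293% and a Fos UMI in 0.430% and 0.146% of thinned cells. Their median depths before thinning were 5350 and 8026 UMIs, against 2772 and 3376 in mature neutrophil-like cells. Hemoglobin made up 85.2% and 87.9% of their UMIs, so few other UMIs were left after thinning. These shares thus do not give the background of mature neutrophil-like cells, where free RNA was at most 53.7% and 51.5% of UMIs. Jund was found in 77.7% of control and 69.0% of DKO B-like cells, and in 13.7% and 4.42% of granulocyte-monocyte progenitor-like cells. Nfkbia was found in 18.6% (16.2% to 21.1%) of control and 29.7% (25.8% to 34.0%) of DKO monocyte-like cells, and as sequenced in 54.8% and 76.3%. The Jund counts of thinned pro-B and pre-B-like cells varied more than Poisson counts would, with a variance over mean of 2.65 and 2.18.

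Pairs of members in the same thinned cell were set against the product of their shares. Among pairs with at least 5 cells to be shared if independent, 24 of 31 in control B-like and 23 of 29 in DKO B-like cells had more, with median ratios of 1.10 and 1.08. For the Nfkbia-Tnfaip3 pair, the 2 inhibitors, 20 control and 16 DKO T-like cells held both, 1.67 and 1.86 times the product. For Junb-Fos in immature neutrophil-like cells the ratios were 2.60 (32 cells) and 1.73 (18 cells), and in the single Pla2g7 and Csf3r cluster they were 1.02 and 1.01. For Junb-Egr1 in control B-like cells the ratio was 2.32 (21 cells), and in DKO B-like cells fewer than 5 shared cells were due. Cells of a class share a library, and no test was made.

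Genes around the 2 pathways were read from 4 fixed lists. Of 35 NF-kB pathway genes, 25 passed the minimum in B-like cells, with 0 lower and 3 higher (Nfkbid, Traf3 and Traf6) where 5.32% of all genes tested were higher, and a median ratio of 0.34 beside 0.12 for all genes tested. In monocyte-like cells 19 passed, with 0 lower and 2 higher (Nfkbid and Traf3), where 4.19% of all genes were higher, and a median of 0.33 beside 0.11. Macrophage-like cells had 3 of 14 lower (Otulin, Ccl4 and Sod2) and 3 higher, where 9.63% and 5.12% of all genes were. T-like cells had 1 of 22 lower (Ccl4) and 4 higher, where 6.45% and 10.4% were. Mature neutrophil-like cells had 1 of 19 lower (Map3k7) and 1 higher, where 4.48% and 5.84% were. The median was 0.18 in immature neutrophil-like and -0.05 in early erythroid-like cells, beside 0.18 and -0.01 for all genes tested. Traf3, an adaptor that restrains the noncanonical pathway, was 67.4 and 119.5 CPM in monocyte-like cells (0.83) and 111 and 184 CPM in immature neutrophil-like cells (0.72). Nfkbid, an atypical nuclear IkB protein, was 35.5 and 71.5 CPM in B-like cells (1.01). Tab2, an adaptor of the TAK1 kinase, was 133 and 192 CPM in monocyte-like cells (0.53). Il1b, a target of NF-kB, was concentrated in mature neutrophil-like cells, at 807 and 1074 CPM (0.41).

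Among the AP-1 and bZIP partners, a list of 20, none of those that passed the 20 CPM minimum was lower by 1.5-fold in the 10 larger classes, but in late erythroid-like cells 1 of 20 passed it. In mature neutrophil-like cells 3 of 9 tested were higher (Fosl2, Jdp2 and Map2k4), where 5.84% of all genes were. Fosl2, a Fos family member, was 176 CPM (1059 UMIs) in control and 366 CPM (2869 UMIs) in DKO cells of that class (1.06), and it was also higher in immature neutrophil-like (38.5 and 70.6 CPM, 0.87) and monocyte-like cells (75.9 and 116 CPM, 0.61). Mapk14, the p38 kinase, was 73.8 and 128 CPM in B-like cells (0.79). Atf4, a stress-response factor, was 114 and 171 CPM in early erythroid-like cells (0.59) and went the other way in late erythroid-like cells, at 23.1 and 8.98 CPM (-1.36, -1.56 to -1.16), a mean under the minimum. Mafg, a small Maf protein, was 141 and 154 CPM in immature neutrophil-like cells (0.12).

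Of 32 further immediate response genes, few passed 1.5-fold: 1 of 16 tested was lower in monocyte-like cells (Dusp1), 1 of 18 in pro-B and pre-B-like cells (Ier2), 1 of 15 in immature neutrophil-like cells (Gadd45b) and 1 of 19 in mature neutrophil-like cells (Dusp6), and 0 were higher in these 4 classes. The shares of all genes lower there were 1.86%, 1.74%, 1.15% and 4.48%. T-like cells had 0 of 19 lower and 3 higher (Dusp1, Zfp36l1 and Zfp36l2), where 10.4% of all genes were higher. B-like cells had 1 of 18 lower (Gadd45a) and 1 higher (Zfp36l2), beside 2.56% and 5.32% of all genes. Granulocyte-monocyte progenitor-like cells had 1 of 14 lower (Klf2) and 0 higher, beside 1.31% and 6.68%. Macrophage-like cells had 0 of 14 lower and 1 higher (Klf6), beside 9.63% and 5.12%. In early and late erythroid-like cells 0 of 10 and 0 of 3 passed 1.5-fold in either direction. Of all genes there, 3.03% and 26.5% were lower and 0.77% and 0.298% higher. The abundant genes of the list, Btg1, Btg2 and Cebpb, were 1079.6, 665 and 859 CPM in control and 1568, 858 and 1197 CPM in DKO mature neutrophil-like cells (0.54, 0.37 and 0.48). The heat shock list, which was added as a measure of handling, had 5 of 9 tested genes higher in B-like cells (Hspa8, Hsp90aa1, Hsph1, Dnaja1 and Dnajb1), with a median ratio of 0.62, where 5.32% of all genes were higher. T-like cells had 3 of 9 higher (Hsph1, Dnaja1 and Dnajb1), beside 10.4% of all genes, and a median of 0.28. The list's median was 0.02 in granulocyte-monocyte progenitor-like, -0.01 in monocyte-like and -0.33 in macrophage-like cells. In B-like cells Hspa8, a constitutive chaperone, was 250.1 and 563 CPM (1.17), and Dnaja1, its co-chaperone, 115 and 270.5 CPM (1.23). In immature and mature neutrophil-like cells Hspa8 was the only heat shock gene past 1.5-fold (0.91 and 0.65). The part of handling in the members' ratios was not tested.

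Over the 36 class and library levels, on the scale of log2(CPM + 5), the members most alike were Rela and Nfkb1 (Pearson r 0.87), Nfkb1 and Nfkbia (0.82) and Nfkbia and Junb (0.79), while Jund and Fos had r of -0.03. These points share 2 libraries and the low erythroid levels, so r is a description. Among 8069 other genes, those closest to Fos were Cebpb (0.86), Lilra6 (0.83), Gm35853 (0.81), Nlrp3 (0.80) and Slc2a6 (0.80). Closest to Junb were Sidt2 (0.88), Cytip, Txnip and Mcl1 (0.87 each) and Ankrd44 (0.86). Among those closest to Nfkbia were Man2a1 and Birc3 (0.91 each), Nedd9 and Cd53 (0.90 each). Jund had no close match, its nearest being Ikzf3 (0.74), Ypel3 (0.73), Ppp1r16b (0.68), Gm19951 (0.67) and Cd2 (0.67). Rela was nearest to Smg1 (0.97), Lnpep (0.96), Ambra1, Trappc8 and Pak2 (0.95 each).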

How the data were processed

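Bone marrow cells of the control and DKO genotypes were sequenced with 1 Chromium 3' library each. The deposited matrices hold raw UMI counts per gene and barcode, made by the authors with Cell Ranger (version 7.1.0 per the file headers) and mm10 per the submitters' processing notes, with all barcodes for the control and called barcodes only (at least 500 UMIs) for the DKO library. Groups were taken from the genotype labels. Whether intronic reads were counted is not given in the sources used here. The members and gene lists were chosen with earlier results of these data known.

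Control cells were called by an order-of-magnitude threshold (4869 UMIs) plus a Monte Carlo test (10000 draws, false discovery rate 0.01) of barcodes from 500 UMIs against barcodes of at most 100 UMIs, which gave 19157 of 1194299 barcodes with a UMI. Cells with over 20% mitochondrial UMIs (171 control, 215 DKO) were left out. Doublets were scored with the Scrublet method in scanpy, and the DKO library's automatic limit of 0.226 was used in both with the scores already known, which removed 337 (1.77%) control and 208 (1.49%) DKO barcodes. The libraries share 75 barcodes.

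Counts were scaled to 10000 per cell and clustered (2000 variable genes without members, list genes and targets, 30 components, 15 neighbors, Leiden resolution 1) and named by markers. A cluster stayed unnamed with under 3 raised markers or with more leading genes of another class. Counts were summed per class and library. Levels have exact Poisson, ratios exact conditional binomial and shares Clopper-Pearson 95% intervals, which cover counting error only. Genes with a mean of at least 20 CPM were tested, meaning compared with a 1.5-fold threshold. Named list genes are the 3 highest by pooled CPM of each list and up to 5 past 2-fold at 50 CPM or more in a class of at least 200 cells in both libraries, and others are named because they make up a count. For likeness, the 5 genes with the highest Pearson r among those of at least 50 CPM in a class are named, except 1 that is not reported here. Of 32285 identifiers, 32158 were found in GENCODE M21. The ratio step was tested on simulated data. Alternatives to scaling, cell filters, clustering, weighting, free RNA and depth were run. Python 3.11.15, numpy 2.4.6, scipy 1.17.1, scanpy 1.11.5 and leidenalg 0.10.2 were used.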

Additional observations from a re-analysis of the deposited data

How the results depend on the processing

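No paired analysis was possible because each genotype has 1 library, and for the same reason no replicate could be left out. Of 97 recomputed class medians over the 10 members, 94 moved by less than the counting error of the middle members. The 3 others were immature neutrophil-like cells with ratios centered on the median of all genes tested (-0.50, reported -0.31), mature neutrophil-like cells with only barcodes above the order-of-magnitude threshold (-0.19, reported 0.06) and monocyte-like cells after subtraction of free RNA (-0.31, reported -0.19). Of 56 pairs of a member and a class tested in the 10 larger classes, 11 were lower and 5 higher by 1.5-fold, and most lower ones were Jund. Among all genes tested in these classes 1.15% to 26.5% were lower and 0.298% to 10.4% higher. The higher calls numbered 1 with only barcodes above the threshold and 3 with a mitochondrial limit of 10%. Free RNA could be subtracted in 7 classes, with the control library's empty droplets used for both libraries, which gave 5 higher calls. Macrophage-like cells, with 3 of the 5 reported higher calls, were left out there. In the 7 classes the only reported higher calls were Nfkb1 in B-like and T-like cells. Tnfaip3 in macrophage-like cells turned to -0.21 when each cell weighed the same. Jund stayed below 0 in all 10 classes under every alternative run there, and in all 7 with free RNA subtracted, and was lower by 1.5-fold in 6 to 9 of the 10. With no minimum other than 3 UMIs, the share of all genes lower by 1.5-fold in the 10 classes was 8.77% to 65.6% and that higher 3.499% to 19.0%. Of 553 recomputed single ratios 505 moved by less than their counting error, 47 moved further and 1 was reversed. The alternatives differed in this. Further moves or reversals numbered 15 of 56 with only barcodes above the threshold and 11 of 49 with free RNA subtracted. They numbered 10 of 56 with ratios centered on the median of all genes tested. The stricter doublet limit, the removal of shared barcodes and the thinning of the deeper library moved 0 of 56 each. Shares of cells depend on depth, and 181 of 194 recomputed shares left their interval when cells were not thinned or were thinned to 1000 UMIs. The cause of these moves was not tested. With 1 library per genotype, variation between mice, between preparations and by genotype cannot be told apart, and Fosb, Tnfaip3 and Egr1 had too few UMIs in most classes for a ratio.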
